A study of Mus musculus with 4 samples.

Results

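CXC chemokines are small secreted proteins that steer leukocytes and stem cells through G protein-coupled receptors. Cxcl1, Cxcl2, Cxcl3 and Cxcl5 carry the ELR motif and attract neutrophils through Cxcr2. Cxcl9 and Cxcl10 are induced by interferons and attract T and NK cells through Cxcr3. Cxcl12 is made constitutively by stroma and endothelium and acts through Cxcr4 and the scavenging receptor Ackr3, Cxcl14 is a homeostatic member best known from epithelium and fibroblasts, and Cxcl16 is a transmembrane member that Adam10 can shed and that binds Cxcr6. The 9 listed chemokines were found by symbol among the 29245 gene columns of a single-well RNA sequencing study of mouse hearts, and all 9 were detected. Their levels are given as UPM, the UMIs (molecules counted by unique molecular identifier) of a gene per 1000000 UMIs outside mitochondrial (mt-) and haemoglobin (Hba-, Hbb-) genes. Each level was computed from UMIs summed over the wells of an animal in a class of cells.

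The hearts came from Mst1/2-deficient (KO) and wild-type (WT) C57BL/6 mice, with 2 animals of each genotype (KO1 and KO2, WT1 and WT2). From each animal a cardiomyocyte fraction (CM) and a non-cardiomyocyte fraction (NCM) were separated by low-speed centrifugation, and wells of both were sequenced on 4 chips, 1 for each genotype and fraction. Genotype and chip can therefore not be told apart within a fraction, nor fraction and chip within an animal. The labels give no allele, no cell type of deletion, no age, and no statement of injury or treatment for these hearts; the series title places the study beside myocardial infarction and the leukotriene B4 receptor.

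Of 4275 wells, 3990 passed the minimum of 10000 UMIs and 300 genes. NCM fractions gave 715 wells of KO1 and 747 of KO2, against 692 of WT1 and 703 of WT2, and CM fractions gave 264 and 385 wells of KO animals, against 210 and 274 of WT animals. The KO wells of the NCM fraction stood apart in quality: mitochondrial genes took 58.1 and 36.5% of UMIs in KO1 and KO2, against 7.45 and 11.2% in WT1 and WT2. The median well held 24379 and 43941 other UMIs in KO1 and KO2, against 53343 and 62963 in WT1 and WT2. Stk4 (Mst1) was at 45.8 and 37.5 UPM in KO NCM fractions, against 53.1 and 47.3 in WT ones, without overlap, and Stk3 (Mst2) was at 29.0 and 26.3 in KO against 23.5 and 38.6 in WT, with overlap. In CM fractions Stk4 was at 17.9 and 9.31 in KO against 32.3 and 14.2 in WT and Stk3 at 31.2 and 11.9 against 12.7 and 13.8, both with overlap. The targeted genes' transcripts were thus present in KO wells of both fractions, and the genotypes rest on the labels. The part of chip and well quality in the genotype differences given here was not tested. 856 well barcodes occurred on more than 1 chip, so wells were identified by chip and barcode. In 20 negative control wells with 5910 UMIs in all, Cxcl16 had 2 UMIs, Cxcl1, Cxcl2 and Cxcl10 had 1 each, and the other members had 0.

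Wells were put in classes by clustering without the 9 chemokines, and a class is called "X-like" from at least 3 fixed marker genes among its leading genes. NCM fractions held 503 fibroblast-like, 272 macrophage-like, 605 endothelial-like, 155 neutrophil-like and 76 endocardial-like wells. Cluster 0, led by class II genes and Cd209a, and cluster 1, led by the lymphatic markers Ccl21a and Mmrn1 beside the muscle genes Tnnc1 and Myl3, stayed unnamed. Classes were ranked by level among the 7 NCM classes and clusters with at least 10 wells in every animal (these 5 classes and clusters 0 and 1); T or NK-like, B-like, pericyte-like and erythroid-like wells were too few in some animals. Differences between classes are a description, with no test.

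Of the 9 genes, 6 lie on chromosome 5 (mm10). Cxcl5 (chr5:90759360-90761624), Cxcl3 (chr5:90786103-90789600), Cxcl1 (chr5:90891241-90893115) and Cxcl2 (chr5:90903871-90905938) share the plus strand within 147 kb, and Cxcl1 and Cxcl2 lie 10.8 kb apart. Cxcl9 (chr5:92321347-92328079) and Cxcl10 (chr5:92346638-92348889) are neighbours on the minus strand. Cxcl12 lies at chr6:117168535-117181367 on the plus strand, Cxcl14 at chr13:56288643-56296551 and Cxcl16 at chr11:70453983-70459984, both on the minus strand. Cxcl10 overlaps Art3 and Cxcl16 overlaps Zmynd15 on the opposite strand, and since the strand setting of the counting is not given in the sources used here, reads of each pair cannot be told apart.

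The 165 bases before the RefSeq start (build GRCm38.p6) of 4 members are shown. Of the 7 members with a matched promoter, these are the ones whose upstream windows held a kB motif, the letter pattern bound by NF-kB factors. Capitals mark GGGNNNTTCC on either strand, and the longer runs of capitals are overlapping matches on both strands. The windows are chr5:90891080-90891244 (Cxcl1), chr5:90903734-90903898 (Cxcl2) and chr5:90785936-90786100 (Cxcl3), all plus strand, and chr5:92348890-92349054 (Cxcl10, minus strand).
Cxcl1: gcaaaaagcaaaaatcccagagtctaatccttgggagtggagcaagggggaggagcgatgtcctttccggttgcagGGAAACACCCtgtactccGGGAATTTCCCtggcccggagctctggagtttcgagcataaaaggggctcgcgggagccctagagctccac
Cxcl2: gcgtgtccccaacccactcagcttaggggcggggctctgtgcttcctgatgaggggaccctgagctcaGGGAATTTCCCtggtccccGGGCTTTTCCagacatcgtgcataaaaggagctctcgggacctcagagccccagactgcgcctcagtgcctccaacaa
Cxcl3: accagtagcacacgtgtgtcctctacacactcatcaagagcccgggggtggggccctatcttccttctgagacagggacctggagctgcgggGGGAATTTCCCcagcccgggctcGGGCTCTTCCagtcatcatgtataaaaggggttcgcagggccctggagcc
Cxcl10: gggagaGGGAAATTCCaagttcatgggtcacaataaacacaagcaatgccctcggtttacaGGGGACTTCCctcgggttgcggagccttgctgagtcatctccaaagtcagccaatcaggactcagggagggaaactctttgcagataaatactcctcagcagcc
The ELR genes Cxcl1, Cxcl2 and Cxcl3 shared the letters GGGAATTTCCC, starting 71, 97 and 73 bases before the start of transcription. RefSeq promoter sequences were matched for 7 of the 9 members. Cxcl5, also an ELR gene, and Cxcl16 had no match and were not scanned for any pattern. In the 250 bases upstream, the kB pattern was present in Cxcl1, Cxcl2, Cxcl3 and Cxcl10 and in 4.65% of 32851 mouse promoters. The interferon-stimulated response element pattern GAAANNGAAA was present upstream of Cxcl10 and Cxcl14 and of 2.98% of promoters, and the STAT pattern TTCNNNGAA upstream of Cxcl14 and of 7.02%. A match of letters is a description and not a measured site.

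The 9 chemokines together took 0.311 and 0.3333% of the other UMIs in NCM fractions of KO1 and KO2, against 0.490 and 0.401% in those of WT1 and WT2. Cxcl1 and Cxcl2 made up 73.3 and 82.8% of these chemokine UMIs in KO1 and KO2, against 84.6 and 82.4% in WT1 and WT2. In CM fractions the 9 took 0.171 and 0.0474% in KO1 and KO2, against 0.139 and 0.0619% in WT1 and WT2. The share was thus lower in the CM than in the NCM fraction of each of the 4 animals.

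Cxcl1, a first-wave neutrophil attractant, had its highest means in 3 of the 7 ranked classes. Averaged over the 4 animals it was at 2553 ± 2368 UPM in neutrophil-like, 2470 ± 605 in macrophage-like and 2418 ± 852 in fibroblast-like NCM wells (SD, n = 4 animals), and these ranges overlapped. The next ranked class was cluster 1 at 1085 ± 188, whose range did not overlap the fibroblast-like one, and endothelial-like wells were lowest of the 7 at 598 ± 168 (SD, n = 4 animals). Endocardial-like wells, ranked below cluster 1, averaged 967 ± 823 (SD, n = 4 animals). They ranged from 367 to 2113 and overlapped all 3 leading classes. The 2113 was in WT2, above the 1755 of macrophage-like wells of that animal. Neutrophil-like wells held 927 and 1648 UPM of Cxcl1 in KO1 and KO2, against 1566 and 6072 in WT1 and WT2, and the genotypes overlapped. The neutrophil-like mean rested on WT2, where 1 well held 53.0% of the class's Cxcl1 UMIs, and was 1380 ± 395 without that animal (SD, n = 3). Fibroblast-like wells held 1413 and 2027 UPM of Cxcl1 in KO1 and KO2, against 3254 and 2979 in WT1 and WT2. They gave 32.8 and 34.8% of all Cxcl1 UMIs of the NCM fraction in KO1 and KO2 from 13.3 and 16.7% of its wells. In WT1 and WT2 they gave 61.4 and 51.9% of Cxcl1 UMIs from 23.0 and 17.6% of wells. In every animal the fibroblast-like share of Cxcl1 UMIs was thus above the share of wells, but these wells were also deeper. Their median depth was 45736 and 74773 other UMIs in KO1 and KO2, against 24379 and 43941 over all NCM wells. In WT1 and WT2 it was 172469 and 132454, against 53343 and 62963. The share of UMIs therefore also reflects depth, whose part was not tested. Cxcl1 was unevenly spread between wells, and the single highest fibroblast-like well held 13.2 and 17.7% of the class's Cxcl1 UMIs in KO1 and KO2, against 13.3 and 14.2% in WT1 and WT2.

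Cxcl2, the other main Cxcr2 ligand, followed a myeloid order. It averaged 6370 ± 3289 UPM in neutrophil-like and 3132 ± 475 in macrophage-like wells, and the macrophage-like range did not overlap that of the next class, cluster 1 at 1210 ± 383 (SD, n = 4 animals). Fibroblast-like wells were lowest of 7 classes, at 342 ± 131 (SD, n = 4 animals). Macrophage-like wells held 3570 and 2577 UPM in KO1 and KO2, against 3481 and 2899 in WT1 and WT2, so the genotypes overlapped. They gave 26.5 and 20.1% of Cxcl2 UMIs in KO1 and KO2 from 5.87 and 5.35% of wells, and 46.5 and 54.9% in WT1 and WT2 from 14.6 and 12.7% of wells. These wells too were deeper than the NCM fraction as a whole. Their median depth was 46331.5 and 92895 other UMIs in KO1 and KO2 and 128932 and 204701 in WT1 and WT2. These shares of UMIs therefore also reflect depth. Neutrophil-like wells held 4125 and 2979 UPM in KO1 and KO2, against 9078 and 9299 in WT1 and WT2. These KO values lay below both WT values, but only 28 and 18 neutrophil-like wells of KO1 and KO2 stood against 73 and 36 of WT1 and WT2, and no test was made with under 20 wells in an animal. The neutrophil markers' summed share of UMIs in these wells was lower in KO too, at 0.864 and 0.881% against 2.77 and 2.53%, and its part in the Cxcl2 difference was not tested.

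**Figure D1:**
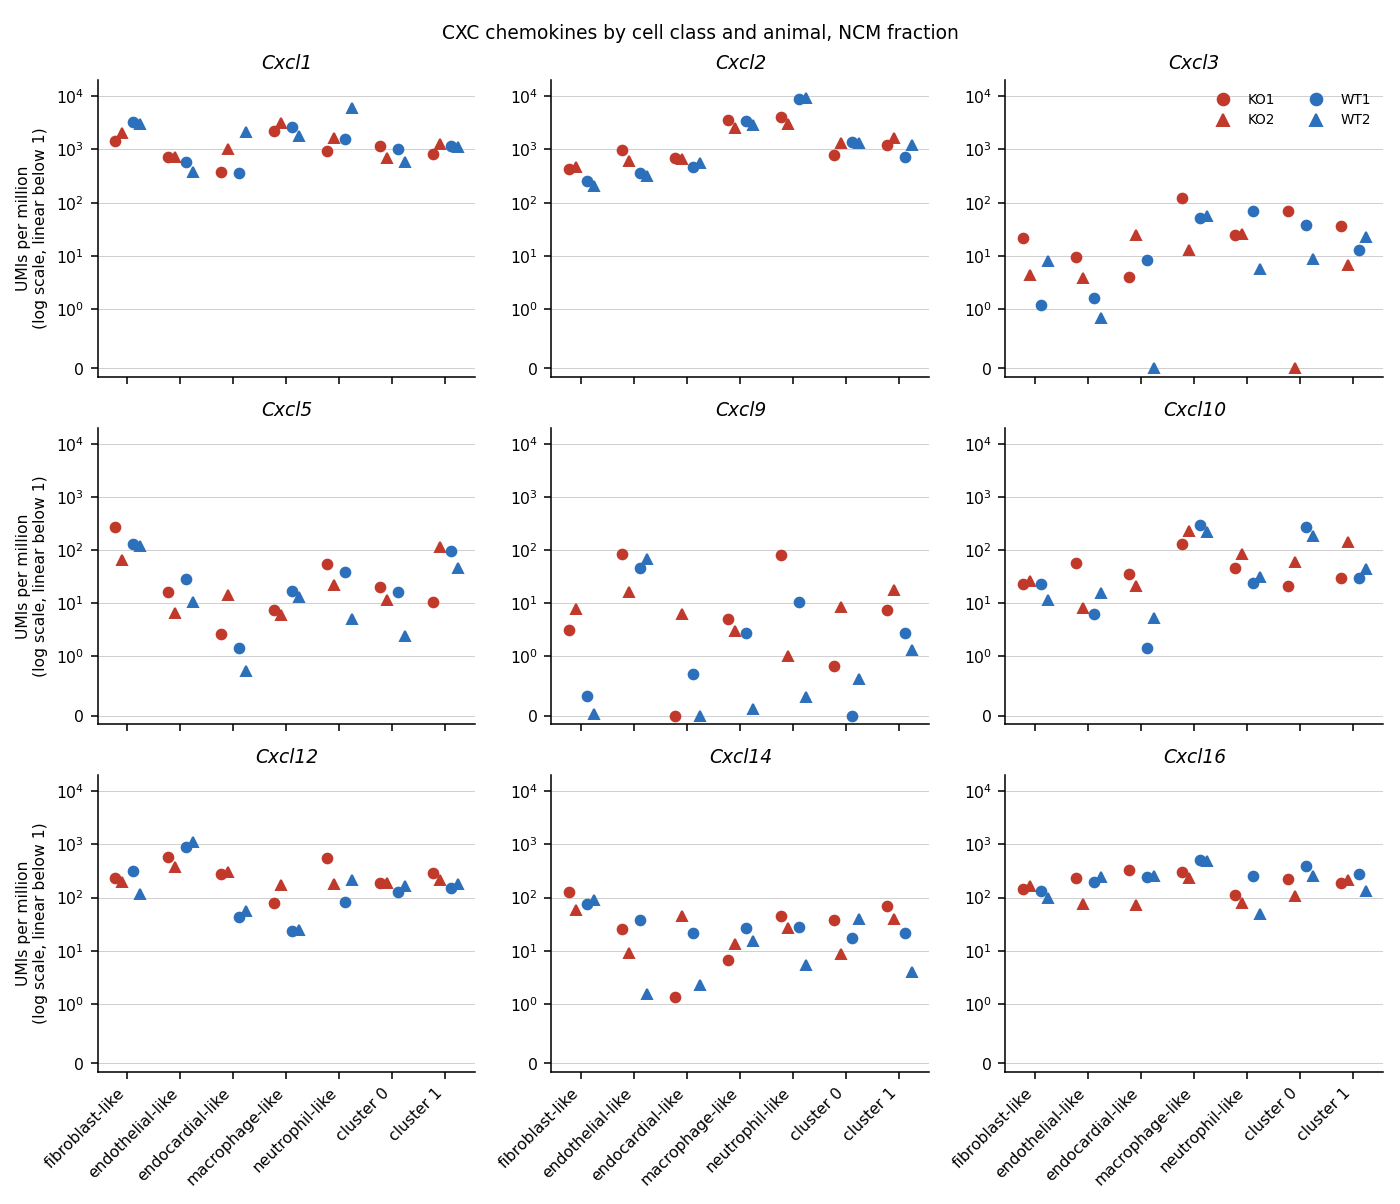
Levels of the 9 chemokines in UPM (log axis, linear below 1) by cell class of the NCM fraction, with 1 point per animal, KO1 and KO2 left of WT1 and WT2 in each class. Cxcl1 is high in neutrophil-like, macrophage-like and fibroblast-like wells, while Cxcl2 is high in the myeloid classes and lowest in fibroblast-like wells at 342 ± 131.

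The number of Cxcl1 UMIs per Cxcl2 UMI put this contrast in 1 value per animal. In fibroblast-like wells it was 3.23 in KO1 and 4.34 in KO2, against 12.5 in WT1 and 14.8 in WT2, so both KO values were below both WT values. The mean was 3.78 ± 0.783 in KO and 13.7 ± 1.56 in WT (SD, n = 2 each), which gave p = 0.33 in a two-sided exact permutation test, the smallest p that 2 against 2 animals allow. In macrophage-like wells the ratio was 0.632 and 1.23 in KO1 and KO2, against 0.776 and 0.605 in WT1 and WT2, and the genotypes overlapped (exact permutation p = 0.667). Endothelial-like wells, at 0.740 and 1.20 in KO and 1.56 and 1.15 in WT, also overlapped (exact permutation p = 0.667). Neutrophil-like wells were at 0.225 and 0.553 in KO and 0.173 and 0.653 in WT (exact permutation p = 1). The 4 p-values are unadjusted, and none could pass 0.05 at this size. The ratio was higher in fibroblast-like than in macrophage-like wells of each of the 4 animals, so classes of 1 animal did not hold the pair in a single proportion.

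**Figure D2:**
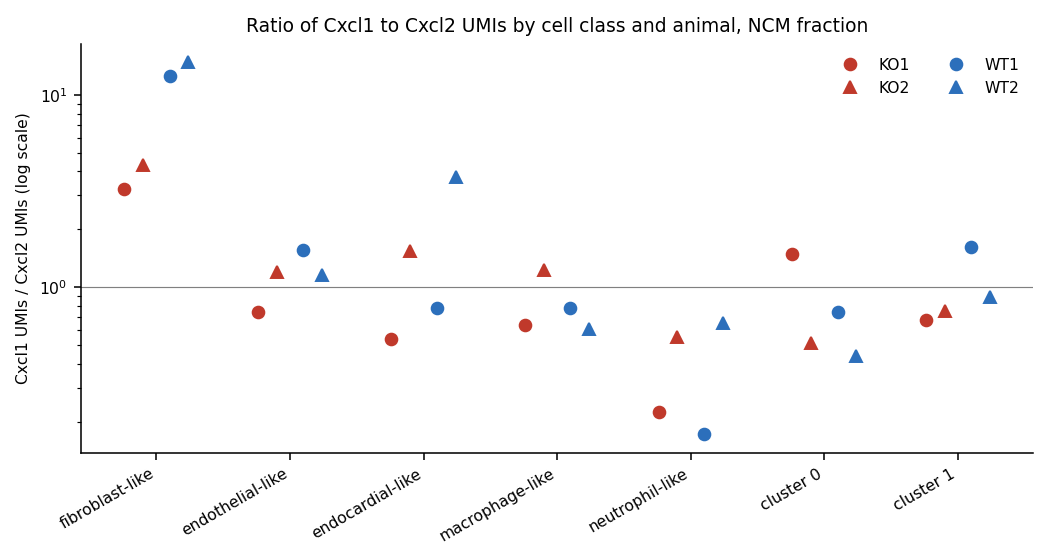
Cxcl1 UMIs per Cxcl2 UMI (log axis) by cell class of the NCM fraction, 1 point per animal, KO left of WT. Fibroblast-like wells lie at 3.23 and 4.34 in KO and at 12.5 and 14.8 in WT, above the macrophage-like and neutrophil-like wells of the same animals.

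Nearly every well held some Cxcl2, so the share of positive wells was read after each well was thinned to 10000 UMIs. Unthinned, 97.9 and 97.6% of fibroblast-like wells of KO1 and KO2 had a Cxcl2 UMI, against 98.1 and 98.4% of WT1 and WT2, with median depths of 45736 and 74773 other UMIs in KO and 172469 and 132454 in WT. Thinned, 85.7 and 80.5% of KO fibroblast-like wells were positive, against 69.0 and 57.4% of WT ones. The thinned share was 97.6 and 97.5% in macrophage-like wells of KO animals, against 96.0 and 93.3% in WT ones, and 100% in neutrophil-like wells of all 4. Since no class was free of Cxcl2, no class gives its background, and its presence in a single fibroblast-like or endothelial-like well was not read as expression. Free RNA in the wells and its part in the lower levels were not tested. Within wells, thinned Cxcl1 and Cxcl2 were weakly related in macrophage-like wells (Spearman's rho 0.26 and 0.34 in KO1 and KO2, 0.44 and 0.48 in WT1 and WT2) and less in fibroblast-like wells (0.13 and 0.24 in KO, 0.06 and 0.18 in WT). These values describe 40 to 158 wells of 1 library each.

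Cxcl3, another Cxcr2 ligand, was scarce. It averaged 60.6 ± 45.1 UPM in macrophage-like wells (SD, n = 4 animals; 40.4 without KO1), at 121 and 12.7 in KO1 and KO2, against 51.9 and 56.5 in WT1 and WT2. The spread between the KO animals exceeded any difference from WT, and a single well gave 81.2% of KO2's macrophage-like UMIs. Fibroblast-like wells held 21.7 and 4.36 UPM in KO1 and KO2, against 1.21 and 7.88 in WT1 and WT2.

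Cxcl5 (LIX), an ELR chemokine known from epithelium and stroma, had its highest mean of the 7 ranked classes in fibroblast-like wells, at 147 ± 89.5 UPM (SD, n = 4 animals). It was at 274 and 64.4 in KO1 and KO2, against 130.5 and 118 in WT1 and WT2, so the genotypes overlapped. In KO2 cluster 1 was higher, at 112.5, where 1 well held 77.3% of the UMIs. Few wells carried it: after thinning, 11.0 and 7.32% of fibroblast-like wells were positive in KO1 and KO2, against 20.9 and 8.20% in WT1 and WT2. Macrophage-like wells had shares of 9.76 and 7.5% in KO and 8.91 and 4.49% in WT, with median depths of 46331.5 and 92895 in KO and 128932 and 204701 in WT. In KO2 the fibroblast-like share was below the macrophage-like one, so the share of positive wells alone does not mark fibroblast-like wells. The level rested on few wells: the highest held 60.8, 57.3 and 68.5% of the class's Cxcl5 UMIs in KO1, KO2 and WT2, and 17.2% in WT1.

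Fibroblast-like wells fell into 2 clusters, in which the chemokines were not equally high. Cluster 6 was led by the matrix and activation genes Postn, Timp1 and Cthrc1, and cluster 5 by the resting fibroblast genes Gsn, Dcn and Lum. Cxcl5 was at 510 and 101 UPM in cluster 6 of KO1 and KO2, and at 206 and 256 in that of WT1 and WT2. In cluster 5 it was at 36.5 and 19.3 in KO1 and KO2 and at 18.1 and 1.68 in WT1 and WT2. Cxcl5 was thus higher in cluster 6 than in cluster 5 of all 4 animals. Cxcl10 ran the same way in all 4, at 29.5 and 36.0 UPM in cluster 6 of KO1 and KO2 and 34.4 and 15 in that of WT1 and WT2, against 17.3 and 13.2 in KO and 5.76 and 8.77 in WT in cluster 5. In cluster 6 a single well held 83.3 and 43.4% of Cxcl10 UMIs in KO1 and KO2, against 44.8 and 75.6% in WT1 and WT2. The Cxcl10 direction thus rested on few wells. Cxcl1 was at 827 and 2127 in cluster 6 of KO1 and KO2 and at 2854 and 1881 in that of WT1 and WT2. In cluster 5 it was at 2003 and 1906 in KO and 3854 and 3898 in WT, higher than in cluster 6 in 3 of 4 animals. Cxcl2 was at 307 and 317 in cluster 6 of KO and 224 and 239 in that of WT, against 569 and 650 in KO and 313 and 170 in WT in cluster 5, likewise higher in cluster 5 of 3 animals. Cxcl3 had no common direction, at 7.99 and 2.65 in cluster 6 of KO and 1.28 and 16.3 in that of WT, against 35.6 and 6.44 in KO and 1.09 and 0.84 in WT in cluster 5. Cxcl16 was at 168 and 225 in cluster 5 of KO1 and KO2 and at 158 and 119 in that of WT1 and WT2. In cluster 6 it was at 124 and 121 in KO and 119 and 72.0 in WT, lower in all 4 animals. A single well held 36.1 to 49.8% of its UMIs in cluster 6. Cxcl12 was higher in cluster 5 of every animal but KO2. Cxcl9, at 12.7 or below, had no common direction. Cxcl14 was at 31.3 and 6.60 in cluster 6 of WT1 and WT2, against 140 and 162 in their cluster 5, and at 50.01 in cluster 6 of KO2, against 69.2 in its cluster 5. KO1 ran the other way, at 209 in cluster 6, where 1 well held 79.3% of the UMIs, against 42.4 in cluster 5. Cluster 6 held 27 and 50 wells of KO1 and KO2 and 73 and 22 of WT1 and WT2, and these comparisons are a description without a test.

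**Figure D3:**
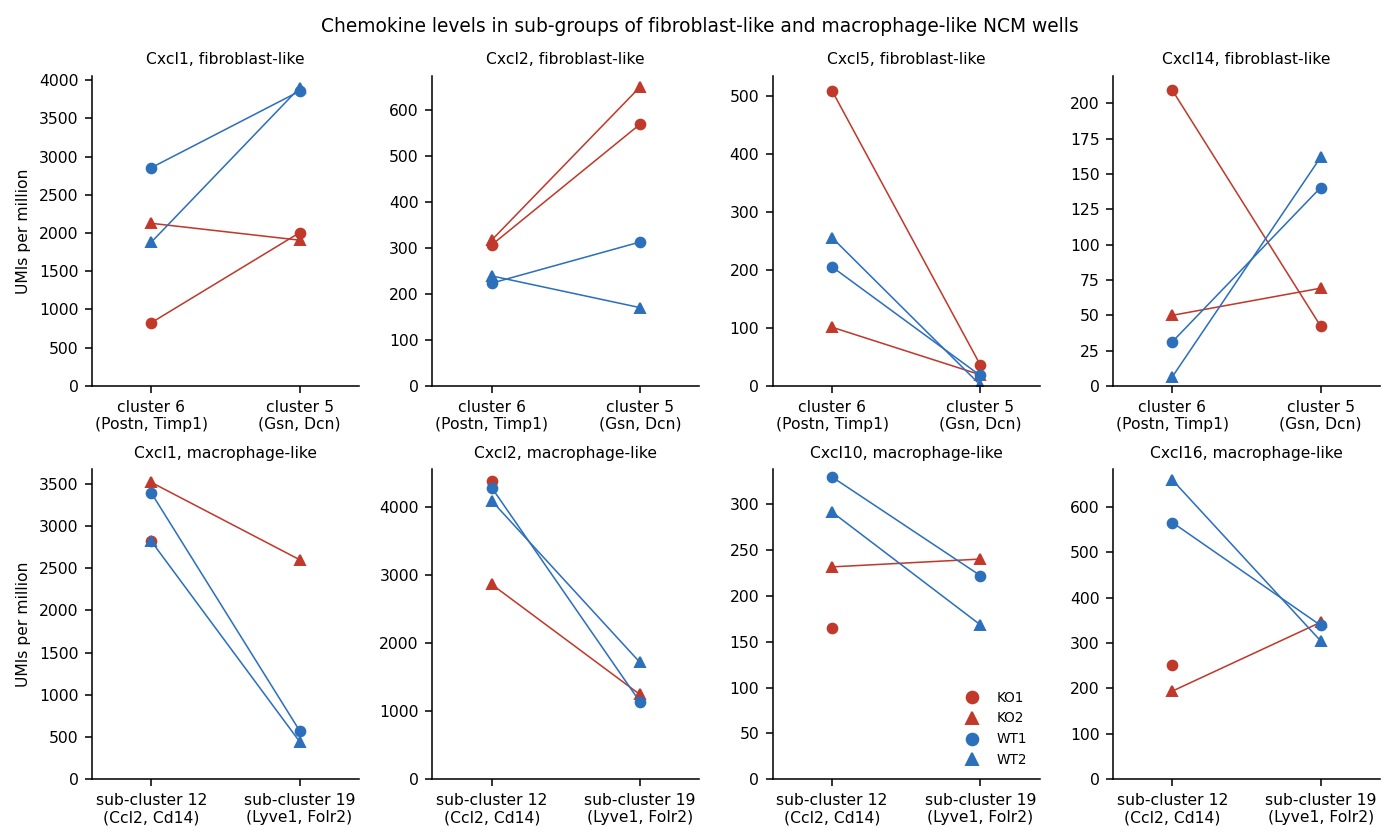
Levels in UPM (linear axes) in fibroblast-like clusters 6 and 5 (upper row) and macrophage-like sub-clusters 12 and 19 (lower row) of the NCM fraction, 1 point per animal, joined by lines within an animal. Cxcl5 lies at 101 to 510 in cluster 6 and at 1.68 to 36.5 in cluster 5, and Cxcl1 at 2819 to 3516 in sub-cluster 12, against 448 and 577 in sub-cluster 19 of the WT animals and 2602 in that of KO2.

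Among the interferon-inducible members, Cxcl9 had its highest mean of the 7 ranked classes in endothelial-like wells, at 85.5 and 16.6 UPM in KO1 and KO2, against 45.6 and 68.0 in WT1 and WT2, which overlapped. In KO2 cluster 1 was higher, at 17.4, as were the unranked erythroid-like wells, at 32.2. The 12 and 8 T or NK-like wells of KO1 and KO2, outside the ranking, held 213 and 69.3, against 0 and 0.712 in the 7 and 11 wells of WT1 and WT2. A single T or NK-like well held 98.6% of these UMIs in KO1 and 100% in KO2. Only 5.09 and 11.1% of thinned endothelial-like wells of KO1 and KO2 were positive, against 6.35 and 7.43% of WT1 and WT2. Fibroblast-like wells, which averaged 2.80 ± 3.57 UPM (SD, n = 4 animals; 1.15 without KO2), were positive in 3.30 and 2.44% in KO and 0.633 and 0.820% in WT. The highest endothelial-like well held 56.6% of Cxcl9 UMIs in KO1, 18.3% in KO2, 68.5% in WT1 and 44.9% in WT2, so the class level rested on few wells.

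Cxcl10 was highest in other ranked classes than Cxcl9. It averaged 219 ± 67.4 UPM in macrophage-like wells and 135 ± 115 in cluster 0 (SD, n = 4 animals; 88.9 in cluster 0 without WT1), at 131 and 231 in macrophage-like wells of KO1 and KO2, against 294 and 219 in those of WT1 and WT2. The genotypes overlapped there, while cluster 0 was at 21.0 and 60.5 in KO1 and KO2, against 271.5 and 185 in WT1 and WT2, without overlap and without a test. After thinning, 26.8 and 50% of macrophage-like wells of KO1 and KO2 had Cxcl10, against 52.5 and 50.6% of WT1 and WT2. The share in fibroblast-like wells was 6.59 and 8.94% in KO and 5.70 and 6.56% in WT, below the macrophage-like share of the same animal in 4 of 4. Unthinned, 38.1 and 60% of macrophage-like wells of KO1 and KO2 held a Cxcl10 UMI, against 68.3 and 68.5% of WT1 and WT2, and 11.6 and 27.2% of fibroblast-like wells of KO animals did, against 32.7 and 25.8% of WT ones.

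Cxcl12 (SDF-1), which holds Cxcr4-bearing cells in place, had its highest mean of the 7 ranked classes in endothelial-like wells, at 739 ± 326 UPM, and its lowest in macrophage-like wells, at 75.3 ± 71.2 (SD, n = 4 animals; 42.1 without KO2). The endothelial-like range, 381 to 1123, overlapped the neutrophil-like one, 83.8 to 550. Some unranked wells lay above the endothelial-like ones of their animal: 7 B-like wells of KO1 at 597 and 8 T or NK-like wells of KO2 at 464. Endothelial-like wells held 580 and 381 in KO1 and KO2, against 874 and 1123 in WT1 and WT2. Macrophage-like wells ran the other way, at 79.0 and 175 in KO1 and KO2, against 23.2 and 24.2 in WT1 and WT2. Neither pair of genotypes overlapped. Pericyte-like wells, known makers of Cxcl12, held 119 and 334 in 6 wells each of KO1 and KO2, against 663 and 759 in 12 and 14 wells of WT1 and WT2. Thinned, 63.9 and 48.7% of endothelial-like wells had Cxcl12 in KO1 and KO2, against 61.9 and 65.5% in WT1 and WT2. In macrophage-like wells the share was 19.5 and 30% in KO and 10.9 and 8.99% in WT. The endothelial markers' summed share of UMIs in these macrophage-like wells was also higher in KO, at 0.191 and 0.152% against 0.0258 and 0.0354%, and that of macrophage markers lower, at 1.34 and 1.33% against 2.49 and 2.85%. Their part in the Cxcl12 difference was not tested.

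Cxcl14 had its highest mean of the 7 ranked classes in fibroblast-like wells, at 87.7 ± 28.8 UPM (SD, n = 4 animals). It was at 126 and 58.7 in KO1 and KO2, against 75.0 and 91.1 in WT1 and WT2. The genotypes overlapped. Thinned, 11.0 and 18.7% of fibroblast-like wells had it in KO1 and KO2, against 18.4 and 14.8% in WT1 and WT2. Macrophage-like wells, the class lowest in Cxcl14, had it in 4.88 and 5% in KO and 13.9 and 6.74% in WT.

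Cxcl16 was highest in macrophage-like wells, at 381.5 ± 140 UPM, and in the order of the 7 ranked classes each overlapped the next, down to neutrophil-like wells at 125 ± 92.7 (SD, n = 4 animals; 80.01 without WT1). Pericyte-like wells, outside the ranking, held only 0 and 5.57 in KO1 and KO2, against 10.2 and 6.33 in WT1 and WT2. Macrophage-like wells held 298 and 228 in KO1 and KO2, against 511 and 489 in WT1 and WT2, without overlap. Thinned, 43.9 and 42.5% of them were positive in KO, against 72.3 and 64.0% in WT. Fibroblast-like wells ran the other way by a small margin, at 146 and 168 in KO1 and KO2, against 135 and 97.5 in WT1 and WT2.

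Genotype was tested on UMI sums per animal with edgeR's quasi-likelihood test over all genes, with Benjamini-Hochberg adjustment. These p-values rest on 2 animals of each genotype. In NCM fractions 0 of 17216 genes passed (0%), and with that 0 of 9 chemokines, while DESeq2 called 579 and 2075 genes were under 0.05 before adjustment. Without a test, the KO and WT animals did not overlap for 5 of 9 chemokines, against 45.3% of all genes tested, so the chemokines' count was near that of genes at large. Over all NCM wells Cxcl1 was at 1058 and 1559 UPM in KO1 and KO2, against 2440 and 1873 in WT1 and WT2, a log2 difference of -0.86 (SE 0.281, edgeR adjusted p = 0.358). Cxcl2 was at 1225 and 1201 in KO, against 1707 and 1434 in WT (log2 -0.53, SE 0.188, edgeR adjusted p = 0.379). Cxcl16 was at 202 and 155.5 in KO, against 266 and 238 in WT (log2 -0.66, SE 0.216, edgeR adjusted p = 0.358). Cxcl1, Cxcl2 and Cxcl16 lay lower in both KO animals than in either WT animal, and none passed. Cxcl10 was at 51.2 and 80.6 in KO, against 110 and 86.9 in WT (log2 -0.72, SE 0.338, edgeR adjusted p = 0.448). Cxcl9 was at 40.8 and 14.2 in KO, against 4.34 and 10.5 in WT (log2 1.68, SE 0.671, edgeR adjusted p = 0.403). These sums mix classes whose numbers differed: macrophage-like wells numbered 42 and 40 in KO, against 101 and 89 in WT, and fibroblast-like wells 95 and 125, against 159 and 124.

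Within fibroblast-like wells 0 of 14230 genes passed (0%), DESeq2 called 331, and 1375 were under 0.05 before adjustment. Cxcl1, at the levels given above, had a log2 difference of -0.997 (SE 0.240, edgeR adjusted p = 0.484), and Cxcl2, at 438 and 467 in KO against 259 and 202 in WT, had 0.83 (SE 0.251, edgeR adjusted p = 0.484). The pair thus lay on opposite sides of zero in the same wells, and neither passed. Without the filter on low counts Cxcl1 passed, with an adjusted p of 0.00216, within a range of 0.00216 to 1.00 over the alternatives tried. Cxcl9, at 3.08 and 7.75 in KO, against 0.33 and 0.03 in WT, had a log2 difference of 4.74 (SE 1.66, edgeR adjusted p = 0.489). WT1 had 13 and WT2 had 1 Cxcl9 UMI there, so the size of this fitted value depends on the prior count. The genotypes did not overlap for 5 of 9 chemokines, against 42.3% of genes tested. Mitochondrial genes took 42.0 and 27.8% of UMIs in fibroblast-like wells of KO1 and KO2, against 5.01 and 6.44% in WT1 and WT2. In the 11 and 56 KO and 155 and 121 WT wells with under 30% mitochondrial UMIs, Cxcl1 was at 1553 and 2283 in KO, against 3236 and 2991 in WT, again without overlap. Cxcl2 in these wells was at 171 and 387 in KO, against 257.5 and 192 in WT, and overlapped.

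Within macrophage-like wells 0 of 12176 genes passed (0%), DESeq2 called 363, and 1086 were under 0.05 before adjustment. Cxcl12 had a log2 difference of 2.25 (SE 0.606, edgeR adjusted p = 0.503) and Cxcl16 one of -1.13 (SE 0.299, edgeR adjusted p = 0.503). Under DESeq2 Cxcl12 alone of the members passed (adjusted p = 0.0213, within a range of 0.0213 to 1.00 over the alternatives). Cxcl2 had a log2 difference of -0.25 (SE 0.228, edgeR adjusted p = 0.777). The genotypes did not overlap for 5 of 9 chemokines, against 40.9% of genes tested. In wells with under 30% mitochondrial UMIs (3 and 29 in KO, 101 and 89 in WT), Cxcl12 was at 22.7 and 186 in KO, against 23.2 and 24.2 in WT, and Cxcl16 at 598.5 and 239 in KO, against 511 and 489 in WT. Both overlapped there, though KO1 rested on 3 wells.

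Within endothelial-like wells 0 of 12438 genes passed (0%), DESeq2 called 268, and 1064 were under 0.05 before adjustment. Cxcl12 had a log2 difference of -1.20 (SE 0.301, edgeR adjusted p = 0.505). It passed without the filter on low counts (adjusted p = 0.0429, within a range of 0.0429 to 0.999). Cxcl2, at 990 and 597 in KO, against 366 and 322 in WT, had a log2 difference of 1.06 (SE 0.319, edgeR adjusted p = 0.505). The genotypes did not overlap for 4 of 9 chemokines, against 40.4% of genes tested. Mitochondrial genes took 62.8 and 42.0% of UMIs in these wells of KO1 and KO2, against 11.2 and 13.2% in WT1 and WT2. In wells with under 30% mitochondrial UMIs (3 and 10 in KO, 64 and 145 in WT), Cxcl2 was at 862 and 235 in KO, against 362 and 316 in WT, and overlapped. Cxcl12 was at 285 and 313 in KO there, against 823 and 1141 in WT, without overlap. In CM fractions 0 of 14462 genes passed (0%), DESeq2 called 48, and 498 were under 0.05 before adjustment. The chemokines' log2 differences there ran between -0.77 for Cxcl10 and 1.23 for Cxcl3, all with an edgeR adjusted p of 0.999, and 2 of 9 did not overlap, against 28.4% of genes tested.

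**Figure D4:**
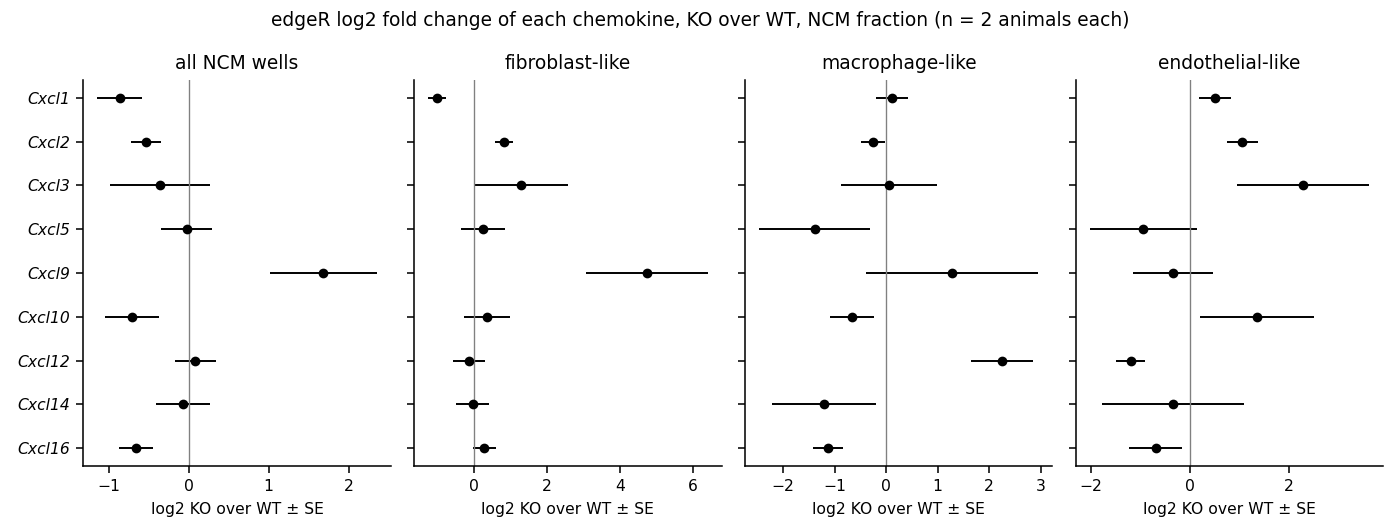
KO over WT log2 differences of the 9 chemokines with standard errors, from edgeR, for the NCM fraction and its fibroblast-like, macrophage-like and endothelial-like wells (2 animals per genotype, log2 axes of different range). Cxcl1 is at -0.997 and Cxcl2 at 0.83 in fibroblast-like wells, Cxcl12 is at 2.25 in macrophage-like and -1.20 in endothelial-like wells, and no value passes an adjusted p of 0.05.

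Whether the genotype difference itself differed between fibroblast-like and macrophage-like wells was tested with the animal as a block. Of 14957 genes 0 passed with edgeR (0%), DESeq2 called 188, and 768 were under 0.05 before adjustment. The KO over WT difference was lower in fibroblast-like than in macrophage-like wells for Cxcl1 (log2 -1.03, SE 0.221, edgeR adjusted p = 0.680) and Cxcl12 (log2 -2.01, SE 0.773, edgeR adjusted p = 0.946). It was higher for Cxcl2 (log2 1.20, SE 0.250, edgeR adjusted p = 0.645) and Cxcl16 (log2 1.54, SE 0.416, edgeR adjusted p = 0.946). A difference of genotype effects between the classes was thus not shown for any chemokine.

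Macrophage-like wells of both fractions allowed a comparison within animals. The fractions of an animal were on different chips, so fraction and chip cannot be told apart in the fraction comparisons. Cxcl1 was at 991 and 799 UPM in CM macrophage-like wells of KO1 and KO2 and at 833 and 400.5 in those of WT1 and WT2. In NCM macrophage-like wells it was at 2257 and 3168 in KO1 and KO2 and at 2700 and 1755 in WT1 and WT2. CM values were lower in 4 of 4 animals, and Cxcl1 fell in the CM fraction, with a log2 difference of -1.57 (SE 0.285, edgeR adjusted p = 0.0226). It was the only chemokine called among 284 of 10226 genes (2.78%), of which 256 were higher and 28 lower in the CM fraction. Cxcl2 was at 1442 and 989 in CM wells of KO1 and KO2 and 1020 and 1317 in those of WT1 and WT2, against the NCM levels given above, and missed the threshold (log2 -1.22, SE 0.267, edgeR adjusted p = 0.0528). Cxcl10 was at 67.5 and 55.9 in KO and 88.2 and 98.1 in WT CM wells and missed it too (log2 -1.29, SE 0.339, edgeR adjusted p = 0.0970). Both were lower in the CM fraction of 4 of 4 animals. Cxcl16 did not share this: it was at 401 and 147 in KO and 329 and 179 in WT CM wells, above the NCM level in KO1 and below it in the other 3 animals. Without 1 animal the Cxcl1 adjusted p was 0.132 (without KO2), 0.157 (without WT1), 0.184 (without WT2) and 0.00181 (without KO1), so the call was lost without KO2, WT1 or WT2. The log2 difference itself stayed between -1.70 and -1.43 with any 1 animal left out.

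The macrophage-like wells of the fractions were not alike in kind. At a finer Leiden resolution of 2.0, sub-cluster 12, led by Ngp, Ccl4, Ccl2 and Cd14, held 189 of 272 NCM wells (69.5%) and 9 of 118 CM wells (7.63%). Sub-cluster 21, led by Spp1, Pf4 and Lgals3, held 105 CM wells (89.0%) and 19 NCM wells (6.99%). Sub-cluster 19, led by Ccl8, Cbr2, Lyve1 and Folr2, genes of resident heart macrophages, held 60 NCM and 4 CM wells. Cxcl1 was at 1037 and 799 UPM in CM wells of sub-cluster 21 in KO1 and KO2, and at 637 and 385 in WT1 and WT2. In NCM wells of sub-cluster 12 it was at 2820 and 3516 in KO1 and KO2, and at 3390 and 2819 in WT1 and WT2. In NCM wells of sub-cluster 19 it was at 2602 in KO2, from 8 wells, and at 577 and 448 in WT1 and WT2. Cxcl2 followed, at 1497 and 989 in KO and 809 and 1459 in WT in CM wells of sub-cluster 21, against 4395 and 2867 in KO and 4290 and 4095 in WT in NCM wells of sub-cluster 12. When macrophage-like wells were named at resolution 2.0, the Cxcl1 log2 difference between fractions was 0.41 (edgeR adjusted p = 0.695) and that of Cxcl2 0.03. That fit had only the WT animals and left out sub-cluster 12, which got no class name at that resolution. It held 27 and 36 NCM wells of WT1 and WT2, against 101 and 89 at resolution 1.0. Cardiomyocyte markers took 1.08 and 4.46% of UMIs in CM macrophage-like wells of KO1 and KO2 and 2.99 and 3.78% in those of WT1 and WT2. In NCM macrophage-like wells they took 0.180 and 0.202% in KO and 0.0742 and 0.126% in WT. Their part in the fraction differences was not tested.

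**Figure D5:**
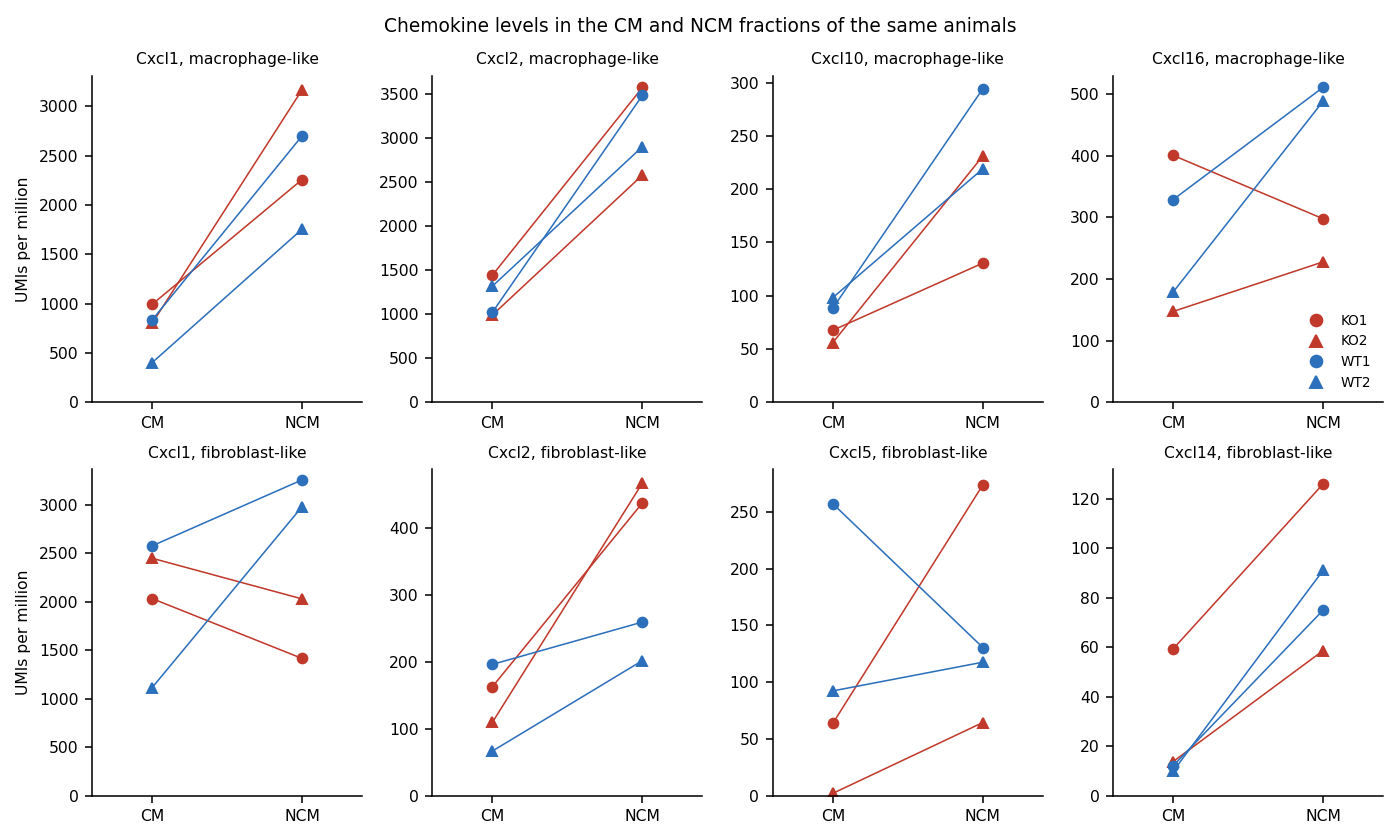
Levels in UPM (linear axes) in CM and NCM macrophage-like and fibroblast-like wells, with lines joining the fractions of an animal. Cxcl1 lies at 400.5 to 991 in CM and at 1755 to 3168 in NCM macrophage-like wells.

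Fibroblast-like wells of both fractions could be tested only in the WT animals, since the CM fraction held 18 and 15 such wells of KO1 and KO2 against the minimum of 20. Cxcl14 was at 12.1 and 9.84 UPM in CM wells of WT1 and WT2, against 75.0 and 91.1 in their NCM wells (log2 -2.66, SE 0.624, edgeR adjusted p = 0.0831). It did not pass, among 338 of 13577 genes that did (2.49%), of which 270 were higher and 68 lower in the CM fraction (239 and 128 when plain totals replaced TMM scaling). Over the alternatives its adjusted p ran between 3.3e-04 and 0.102. Cxcl1 was at 2574 and 1112 in CM wells, against 3254 and 2979 in NCM wells (log2 -0.62, SE 0.279, edgeR adjusted p = 0.472). The untested KO values of Cxcl14 were 59.3 and 13.7 in CM wells, against 126 and 58.7 in NCM wells. Cxcl14 was thus lower in CM than in NCM fibroblast-like wells of all 4 animals. The CM wells were mostly of cluster 6, with 18 and 15 wells in KO1 and KO2 and 19 and 28 in WT1 and WT2. Cluster 5 held 0 CM wells of either KO animal and 1 of each WT animal. In NCM wells of cluster 6 alone, Cxcl14 was at 209 and 50.01 in KO1 and KO2 and 31.3 and 6.60 in WT1 and WT2. The CM level was below that in KO1, KO2 and WT1 and above it in WT2. The part of the clusters in the fraction difference was not tested. Cardiomyocyte markers took 0.767 and 3.25% of UMIs in CM fibroblast-like wells of KO1 and KO2 and 2.87 and 3.01% in those of WT1 and WT2. Their share in NCM fibroblast-like wells was 0.0885 and 0.267% in KO and 0.0572 and 0.113% in WT. Cardiomyocyte-like wells of the CM fraction held little of the family, with Cxcl1 at 306 and 46.6 in KO1 and KO2, against 82.6 and 98.1 in WT1 and WT2, and Cxcl2 at 194 and 32.2 in KO, against 53.2 and 37.2 in WT.

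Among the receptors of these ligands, Cxcr2, the receptor of the ELR members and itself one of the markers that named the class, was at 164 and 305 UPM in neutrophil-like wells of KO1 and KO2, against 147 and 140 in WT1 and WT2. Cxcr3, the receptor of Cxcl9 and Cxcl10, had 0 UMIs in the 12 and 8 T or NK-like wells of KO1 and KO2, which allows up to 9.13 and 9.03 UPM by counting error alone, against 236 and 24.9 UPM in those of WT1 and WT2. Cxcr6, the receptor of Cxcl16, was at 97.4 and 0 in T or NK-like wells of KO1 and KO2, against 24.1 and 305 in WT1 and WT2. The class held only 7 to 12 wells of each animal, so these 2 receptors vary with single wells. Cxcr4 was at 18.5 and 14.7 over all NCM wells of KO1 and KO2, against 11.7 and 12.9 in WT1 and WT2. Ackr3, which scavenges Cxcl12, was at 69.3 and 51.7 in fibroblast-like wells of KO1 and KO2, against 69.8 and 71.8 in WT1 and WT2. In endothelial-like wells it was at 36.3 and 66.0 in KO, against 74.1 and 74.5 in WT.

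Genes of the pathway were counted from lists. Of 10 CXC and atypical receptors 9 were tested in NCM fractions, with a median log2 difference of -0.33 between KO and WT, against -0.01 over all genes, and 0 passed in either direction. Of 15 NF-kB feedback genes and upstream cytokines (among them Il1b, Tnf and Nfkbia), 5 had a KO over WT difference above zero in NCM fractions (median log2 -0.08), 6 in CM fractions (-0.11), 9 in macrophage-like (0.11), 11 in endothelial-like (0.71) and 13 in fibroblast-like wells (0.76). By edgeR 0 passed in any of these comparisons, with 2, 0, 1, 3 and 3 genes at an unadjusted p under 0.05 in that order, and DESeq2 called Il1b in endothelial-like wells. Of 15 genes of interferon input and response, 11 of 15 tested were above zero in NCM fractions (median log2 0.32), 9 of 14 in CM fractions (0.19), 8 of 14 in macrophage-like (0.19), 12 of 14 in endothelial-like (0.67) and 12 of 14 in fibroblast-like wells (0.49). By edgeR 0 passed here too, with 3, 1, 4, 2 and 2 genes at an unadjusted p under 0.05, and DESeq2 called Gbp2 and Ifng in NCM fractions, Gbp2 in macrophage-like and Irf7 in fibroblast-like wells. The medians over all genes lay between -0.07 and 0.01 in these comparisons. Between fractions, 2 of 37 listed genes tested passed in macrophage-like wells (5.41%, against 2.78% of all genes) and 1 of 42 in fibroblast-like wells (2.38%, against 2.49% of all genes). Il1b (interleukin-1 beta) fell in CM macrophage-like wells (log2 -1.96, SE 0.342, edgeR adjusted p = 0.0201), as did Ifngr1, a chain of the interferon gamma receptor (log2 -1.79, SE 0.377, edgeR adjusted p = 0.0426). Mmp2, a matrix protease that can cleave Cxcl12, fell in CM fibroblast-like wells of the WT animals (log2 -2.07, SE 0.342, edgeR adjusted p = 0.0187). The lists of NF-kB and interferon genes had a median of -0.85 and -1.17 in the macrophage-like fraction comparison, against -0.22 over all genes.

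The genes whose levels ran most like each member's were ranked by Pearson's r of log2(UPM + 10) over 42 sums of animal, fraction and class, among 6017 genes. The sums share animals and libraries, so r is a description. Cxcl2 ran with the myeloid genes Ccl3 (0.96), Cd14 (0.95) and Tnf (0.95), and Cxcl10 with Rgs1 (0.89), Ccl4 (0.88) and Ccl12 (0.87). Cxcl1 ran with Rnase4 (0.86), Emp3 (0.85) and Nupr1 (0.82). Cxcl5 ran with the collagen gene Col5a1 (0.83). Cxcl14 ran with Medag (0.71), Axl (0.70), Pcsk6 (0.70) and Gsn (0.70), the last a marker used to name fibroblast-like wells. Cxcl9 ran with Sox18 (0.86), Gm12002 (0.83) and Btnl9 (0.82), of which Sox18 and Btnl9 are endothelial genes, and Cxcl12 with Ly6a (0.87) and Sparcl1 (0.85). Cxcl16 ran with Selenop (0.86), Ftl1 (0.86) and Grn (0.86), and Cxcl3 with Nckap1l and Nfkbiz (0.73 each).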

How the data were processed

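UMI counts per gene and well were deposited by the authors for 4 chips, as unnormalized counts; reads were handled with Subread 1.4.6-p1, featureCounts and STAR 2.5.2b on mm10, per the submitters' processing notes. How UMIs were collapsed, whether strand was used and which annotation release was counted is not given in the sources used here. A Nextera XT kit was used, per the labels' protocols. The animal and fraction of each well came from the deposited well reports, and the animal was the replicate. Of 29245 gene columns, 28604 columns matched a gene symbol; 70 spike-in columns (4.98e-05% of UMIs) and mt-, Hba- and Hbb- genes were left out of totals and tests, and 40 control wells were left out.

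Wells were clustered with scanpy 1.11.5 (Python 3.11.15, leidenalg 0.10.2): 2000 variable genes, 30 principal components, 15 neighbours, Leiden resolution 1.0, without the 9 members. A class took its name when at least 3 of its markers, from 18 marker sets, were among the 30 leading genes of a cluster and no other class had more among the first 10. Scrublet marked 8 of 649 KO CM, 12 of 1462 KO NCM, 0 of 484 WT CM and 2 of 1395 WT NCM wells as doublets; they were kept, and left out as an alternative. No doublet removal is stated in the sources used here, and a caller that marks so few wells gives little protection.

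UMIs were summed per animal and class and tested with edgeR 4.0.16 (quasi-likelihood, TMM, filterByExpr, R 4.3.3) over all genes with Benjamini-Hochberg adjustment at 0.05, in classes with at least 20 wells in an animal. The fraction comparisons and the difference of genotype effects had the animal as a block, since the same animals gave both. DESeq2 1.42.0 and limma 3.58.1 were alternatives, as were other filters, scalings, resolutions and each animal left out. Upper limits for 0 UMIs use 3 counts and cover counting error only. All 9 members are named, with listed pathway genes that are receptors of a member or pass the test, and the 5 genes most like each member are computed, of which the first are named. The members and lists were chosen with earlier results of these data known. The labels do not say whether animals were littermates. The edgeR test was run on simulated counts for KO against WT in NCM fractions and for the fractions of macrophage-like wells. The dispersion was capped at 0.2, and 200 genes, drawn from the most abundant ones, were changed by 3 on the log2 scale. The test called 73.5% of these with 8 false calls in the NCM comparison, and 100% with 4 false calls between fractions. These shares do not tell how often scarcer genes, smaller changes or a larger dispersion would be called.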

Additional observations from a re-analysis of the deposited data

Results flagged for a closer look

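Among 63 groups of 4 animals (9 chemokines in 7 classes of the NCM fraction), 7 held 1 animal far from the other 3 by Dixon's criterion with a critical value of 0.83; chance gives about 1 in 20 groups. Cxcl1 in neutrophil-like wells was at 6072 UPM in WT2. Cxcl2 in cluster 0 was at 783 in KO1, below the others. KO2 stood high for Cxcl5 in endocardial-like wells (14.3), for Cxcl9 in cluster 0 (8.51) and in endocardial-like wells (6.20), and for Cxcl10 in cluster 1 (144). Cxcl9 in neutrophil-like wells was at 82.3 in KO1.

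For 4 pairs of classes other than the tested pair of fibroblast-like and macrophage-like wells, both KO animals lay above both WT animals in 1 class and below them in the other, a difference that was not tested. KO and WT animals did not overlap for 42.3, 40.9 and 40.4% of all genes tested in fibroblast-like, macrophage-like and endothelial-like wells. How often genes at large form such opposite pairs was not computed, so the count is not read as a trait of the chemokines. The gap between the classes' KO over WT differences, each the log2 of (mean UPM + 1), was -1.48 for Cxcl1 between fibroblast-like and endothelial-like wells. For Cxcl2 it was 2.34 between fibroblast-like and neutrophil-like wells and 2.58 between endothelial-like and neutrophil-like wells. For Cxcl12 it was 3.43 between macrophage-like and endothelial-like wells. Cxcl16 also lay on opposite sides in fibroblast-like wells (KO above WT) and macrophage-like wells (KO below WT), the pair whose difference was tested and did not pass (edgeR adjusted p = 0.946).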

How the results depend on the processing

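Of 24 chemokine log2 differences under 280 alternatives in all, 278 kept their sign and 21 changed side of the threshold. The 2 that reversed were Cxcl1 (0.41) and Cxcl2 (0.025) between fractions of macrophage-like wells named at resolution 2.0. That fit lost both KO animals and sub-cluster 12, which got no class name. Genes called by KO against WT, 0 in every comparison with edgeR, numbered 579 (DESeq2), 226 (no filter on low counts), 3 (limma on the mean over wells) and 0 to 1 (leaving out an animal) in NCM fractions. In CM fractions they numbered 48 (DESeq2), 47 (no filter) and 0 to 0 (leaving out an animal). In fibroblast-like wells they numbered 331, 222 and 2 in the order DESeq2, no filter, limma, and 0 to 1 leaving out an animal, with 1 chemokine called without the filter. In macrophage-like wells they numbered 363 (DESeq2, with 1 chemokine), 188 (no filter), 18 (replicate block) and 0 to 15 (leaving out an animal). In endothelial-like wells they numbered 268 (DESeq2), 180 (no filter, with 1 chemokine), 3 (limma), 3 (replicate block) and 0 to 29 (leaving out an animal). The difference of genotype effects gave 188 with DESeq2 and 0 to 44 leaving out an animal. No chemokine was called with an animal left out in any KO against WT comparison or in the difference of genotype effects.

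Between fractions of fibroblast-like wells, calls numbered 954 (DESeq2, with 1 chemokine), 735 (no filter, with 2), 741 (limma, with 3), and 367 with plain totals, with 1 chemokine. Between fractions of macrophage-like wells they numbered 1202 (DESeq2, with 3 chemokines), 575 (no filter, with 2), 609 (limma, with 3), 166 (resolution 2.0, with 0), 404 (no replicate block, with 2) and 265 (plain totals, with 2). Leaving out an animal gave 56 to 556 calls and 0 to 3 chemokines. The causes were not tested. Plain totals, chosen after seeing the data, put the median over all genes, on the log2 scale, between 0.12 and 0.16 for KO against WT, at -0.45 for fibroblast-like fractions (-0.18 with TMM) and at -0.40 for macrophage-like fractions (-0.22 with TMM).

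Animal numbers only name animals. Same-numbered KO and WT animals deviated with a correlation of -0.0041 in NCM and 0.194 in CM fractions, and a replicate block on these numbers gave 0 calls in NCM fractions, CM fractions and fibroblast-like wells. Not run for lack of wells or residual freedom were wells under 30% mitochondrial UMIs for the fraction comparisons and for KO against WT in NCM fractions and their classes, resolution 2.0 for KO against WT in macrophage-like wells and for fibroblast-like fractions, 25000 UMIs and left-out animals for fibroblast-like fractions, and KO against WT in neutrophil-like wells. Depth limits Cxcl3, Cxcl5, Cxcl9 and Cxcl14, which rest on few wells.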
